A study of Oryza sativa with 10 samples.

Results

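A total of 541 regions carried an H3K27me3 peak in at least 1 of 2 rice hybrids of the first generation and in none of the 3 varieties GL, 93-11 and TQ, which were their parents. The peaks of the 5 H3K27me3 libraries were pooled, intervals that shared 1 bp or more were merged, and 13647 merged regions resulted, of which the hybrid-only regions made up 3.96% (95% Wilson interval 3.65% to 4.30%). These regions were chosen by peak calls, that is by the presence of a peak in a hybrid and its absence in the parents, so their number, their scores and their levels are a description and no test of them was made. The hybrid GL×93-11 was the cross of GL with 93-11 and the hybrid GL×TQ that of GL with TQ, and all 5 genotypes were indica rice. No treatment was named. The chromatin came from fully expanded leaves in second position at the time when the secondary branches of the panicle form, and material from 3 plots was combined for a genotype. Each genotype therefore had 1 library per mark and no replicate, so the comparisons come without replicate errors and without p-values, and a difference between genotypes and a difference between libraries cannot be told apart. Intervals are 95% Wilson intervals for shares and 95% Poisson intervals for tags, and they cover counting error only.

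H3K27me3 is set by Polycomb proteins and marks repressed genes, in plants often over the whole gene body. H3K36me3 is laid down behind the transcribing polymerase and marks the bodies of active genes. In a hybrid, each locus carries a chromosome copy from each parent, so a region called in the hybrid and in neither parent was called on neither copy in its own variety.

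The H3K27me3 peaks of a library held 3378454 to 4634144 tags, which are mapped sequence reads. The reads of all 5 indica genotypes had been mapped to the japonica variety Nipponbare. The level of a peak is its tags per kb per 1000000 unique mapped reads of its library. The score of a peak is 10 times the negative log10 of its MACS p-value, and its fold is the enrichment over the background of the peak caller. The lists contain no peak with a score under 50, so a genotype without a peak had no call there, and its signal under that limit is not known. No gene annotation of the coordinates' build was used, and the regions are therefore named by position on Nipponbare; the build was not given in the sources used.

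Most hybrid-only regions belonged to 1 hybrid. GL×93-11 alone had 234 of the 541 (43.3%, 39.1% to 47.5%), GL×TQ alone had 249 (46.0%, 41.9% to 50.2%), and 58 (10.7%, 8.39% to 13.6%) were present in both hybrids. Each region held exactly 1 peak of each hybrid that had it, in 541 of 541 cases. The hybrid-only peaks were 292 of the 8392 peaks of GL×93-11 (3.48%, 3.11% to 3.89%) and 307 of the 8621 peaks of GL×TQ (3.56%, 3.19% to 3.97%). The same rule applied to the H3K36me3 lists gave 518 of 13113 regions (3.95%), of which 338 were of GL×93-11 alone, 121 of GL×TQ alone and 59 of both hybrids. The even split between the hybrids seen for H3K27me3 was thus not seen for H3K36me3 under this rule. With each hybrid set against its own parents only, the H3K27me3 counts were uneven too, at 319 in GL×93-11 alone and 584 in GL×TQ alone. The H3K36me3 lists were not counted in that way.

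Regions found in 1 library alone were fewer in the hybrids than in the parents. They made up 2.80% of the 8353 regions with a GL×93-11 peak and 2.90% of the 8586 regions with a GL×TQ peak, against 14.2% of 9604 for GL, 11.9% of 9005 for 93-11 and 5.13% of 8350 for TQ. The 58 regions of the hybrid pair were the second lowest of the 10 counts of regions shared by exactly 2 libraries. The lowest was 22, for GL×93-11 with TQ, and the highest was 337, for GL×93-11 with 93-11.

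The set depended on every parental list. This follows from the rule, which asks for no peak in any of them, so leaving out a list can only add regions. Without the GL list, 1270 regions met the rule, 23.5% of them in both hybrids. Without the 93-11 list the count was 1218, with 16.6% in both hybrids, and without the TQ list it was 881, with 13.3% in both. A hybrid also had to lack the peaks of the variety that is not its parent, and this requirement bore unevenly on the crosses. When each hybrid was set against its own parents only, 962 regions remained, with 319 in GL×93-11 alone, 584 in GL×TQ alone and 59 in both. Regions with peaks of GL×TQ and 93-11 and of no other library numbered 189, and regions with peaks of GL×93-11 and TQ and of no other library numbered 22. The parental lists also differed in length, with 9054 peaks in 93-11 and 8385 in TQ. The part of this in the uneven counts was not tested.

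The hybrid-only peaks were mostly weak. The highest score reached 100 in 81 of the 541 regions (15.0%, 12.2% to 18.2%) and 200 in 13 (2.40%, 1.41% to 4.07%), while 62% of all H3K27me3 peaks of the hybrids had a score of 100 or more. In GL×93-11 this score was reached by 50 of 292 hybrid-only peaks (17.1%, 13.2% to 21.9%) and by 5104 of the 8100 other peaks (63.0%, 62.0% to 64.1%). In GL×TQ it was reached by 42 of 307 hybrid-only peaks (13.7%, 10.3% to 18.0%) and by 5353 of the 8314 others (64.4%, 63.3% to 65.4%). Regions of both hybrids were the strongest class, with 18 of 58 at 100 or more in at least 1 hybrid (31.0%, 20.6% to 43.8%), and 11 of them in both. GL×93-11 alone had 36 of 234 (15.4%, 11.3% to 20.6%) and GL×TQ alone 27 of 249 (10.8%, 7.56% to 15.3%). A region of both hybrids has a peak more that can reach the limit, and the part of this in its share was not tested.

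**Figure D1:**
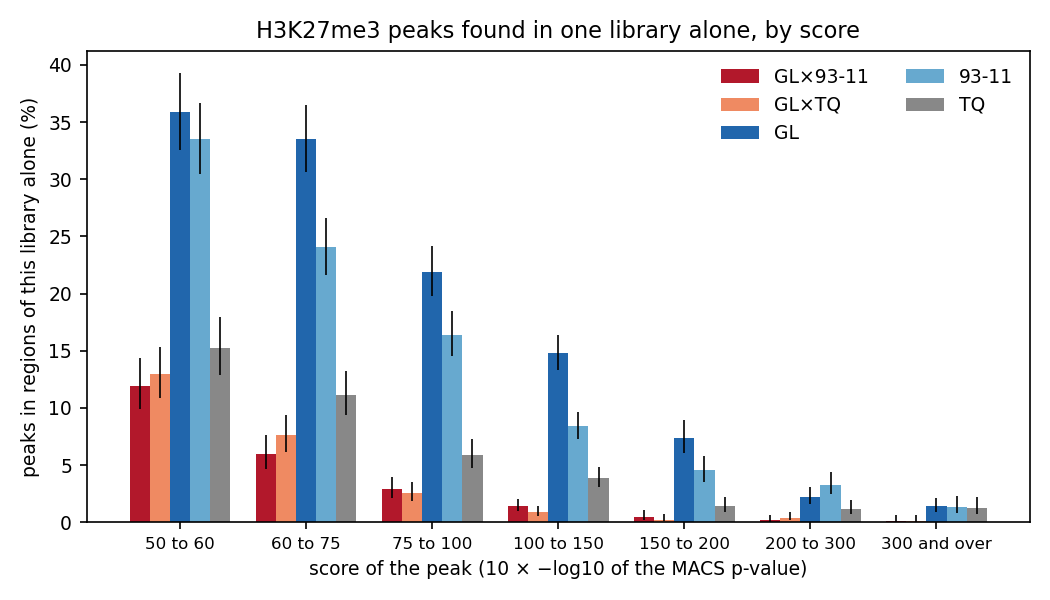
Share of H3K27me3 peaks lying in regions of that library alone (vertical axis, %) by score class (horizontal axis), for the 2 hybrids and the 3 parents, with 95% Wilson intervals as bars. In the class of 50 to 60 the shares are 12.0% in GL×93-11 and 12.9% in GL×TQ, against 35.9% in GL, 33.5% in 93-11 and 15.3% in TQ, and at 300 and over every library is at 1.39% or less.

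The share of hybrid-only peaks fell with the score in both hybrids. Among peaks with a score of 50 to under 60 GL×93-11 had 13.4% (11.2% to 15.9%) and GL×TQ had 14.5% (12.3% to 17.0%). At 75 to under 100 it was 3.97% in GL×93-11 and 3.61% in GL×TQ, and at 100 to under 150 it was 1.85% in GL×93-11 and 1.35% in GL×TQ. Of peaks at 300 or over, 0.112% in GL×93-11 and 0.340% in GL×TQ were hybrid-only. The plot of lone peaks by score shows that the peaks of every parent followed the same course, so a fall with the score was not particular to the hybrids. Scores depend on the depth and the local background of a library, so scores of different libraries, also where regions or classes are ranked by them, are set side by side as a description.

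Levels were lower too. The median level of hybrid-only peaks was 3.45 in GL×93-11, against 4.21 for the other peaks of that hybrid, a ratio of 0.821. In GL×TQ it was 3.09, against 3.97, a ratio of 0.778. With a score of 100 or more required of the hybrid peaks, the lower level was no longer seen. The ratio over both hybrids was then 1.05, with an interval of 0.864 to 1.11 that includes 1. For all peaks the ratio was 0.791 (0.777 to 0.820). The intervals of these ratios are neither Wilson nor Poisson intervals. They reflect the spread of the hybrid-only peaks around their median, with the median of the other peaks held fixed. They hold no replicate error and are given as a description. Per kb of peak, the medians were 151 tags for hybrid-only and 184 tags for other peaks in GL×93-11, and 131 tags for hybrid-only and 169 tags for other peaks in GL×TQ. The median fold was 2.63 in hybrid-only peaks and 3.05 in others in GL×93-11, and 2.63 in hybrid-only peaks and 3.11 in others in GL×TQ. Among hybrid-only peaks, the lowest and highest levels were nonetheless 2.50 and 12.7 in GL×93-11 and 2.27 and 13.3 in GL×TQ, so the upper end reached well into the range of other peaks. Parental peaks near the calling limit, with a score of 50 to under 60, give a measure of what a barely called peak holds. Their median level was 3.23 in GL, 2.90 in 93-11 and 3.37 in TQ, close to the hybrid-only medians. The lowest 95th percentile of their levels in a parent was 6.07. Under it lay 88.0% of hybrid-only and 83.5% of other peaks in GL×93-11, and 94.1% and 85.9% in GL×TQ. Most other peaks of the hybrids thus also had levels in the range of barely called parental peaks.

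Hybrid-only peaks were somewhat shorter than other peaks in the median and as variable. In GL×93-11 the median length was 1737.5 bp, against 1901 bp for others, and in GL×TQ it was 1607 bp, against 1910 bp. Peaks over 3000 bp made up 17.5% (13.5% to 22.2%) of the hybrid-only peaks and 16.4% (15.6% to 17.2%) of the other peaks in GL×93-11, and 12.1% (8.87% to 16.2%) of the hybrid-only peaks and 16.2% (15.5% to 17.0%) of the others in GL×TQ. The share of long peaks was therefore alike in GL×93-11 and lower among hybrid-only peaks in GL×TQ, with overlapping intervals. The upper quartile in GL×93-11, 2753.25 bp, was above that of other peaks, 2642 bp. In GL×TQ it was below, at 2356.5 bp against 2627.75 bp.

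The strongest region of GL×TQ alone lay on chromosome 5 from 18215795 to 18218355. It held 1454 tags (1380 to 1531) over 2561 bp, a level of 13.3, with a score of 1089 and a fold of 3.32. No other list had a peak within 14 kb: the nearest was 14792 bp away in GL×93-11, 14872 bp in GL, 14822 bp in 93-11 and 14833 bp in TQ, and these belonged to 1 region that all 5 genotypes shared. That shared region was weak in every library, with levels of 3.28 in GL×93-11 and 3.25 in GL×TQ, against 3.25 in GL, 2.92 in 93-11 and 3.63 in TQ. The next highest score among all 541 regions was 439.

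That next score belonged to the strongest region of GL×93-11 alone, on chromosome 9 from 16801540 to 16803505. It held 663 tags (613 to 715) over 1966 bp, a level of 7.71, with a fold of 4.38. The nearest peak lay 5563 bp away in GL×TQ, 5564 bp in GL, 5562 bp in 93-11 and 5564 bp in TQ, again within a region of all 5 genotypes. The level of that neighbour was 3.75 in GL×93-11 and 3.45 in GL×TQ, against 3.38 in GL, 3.77 in 93-11 and 4.03 in TQ. In this stretch the hybrid-only peak was higher than the peak that all genotypes had beside it.

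**Figure D2:**
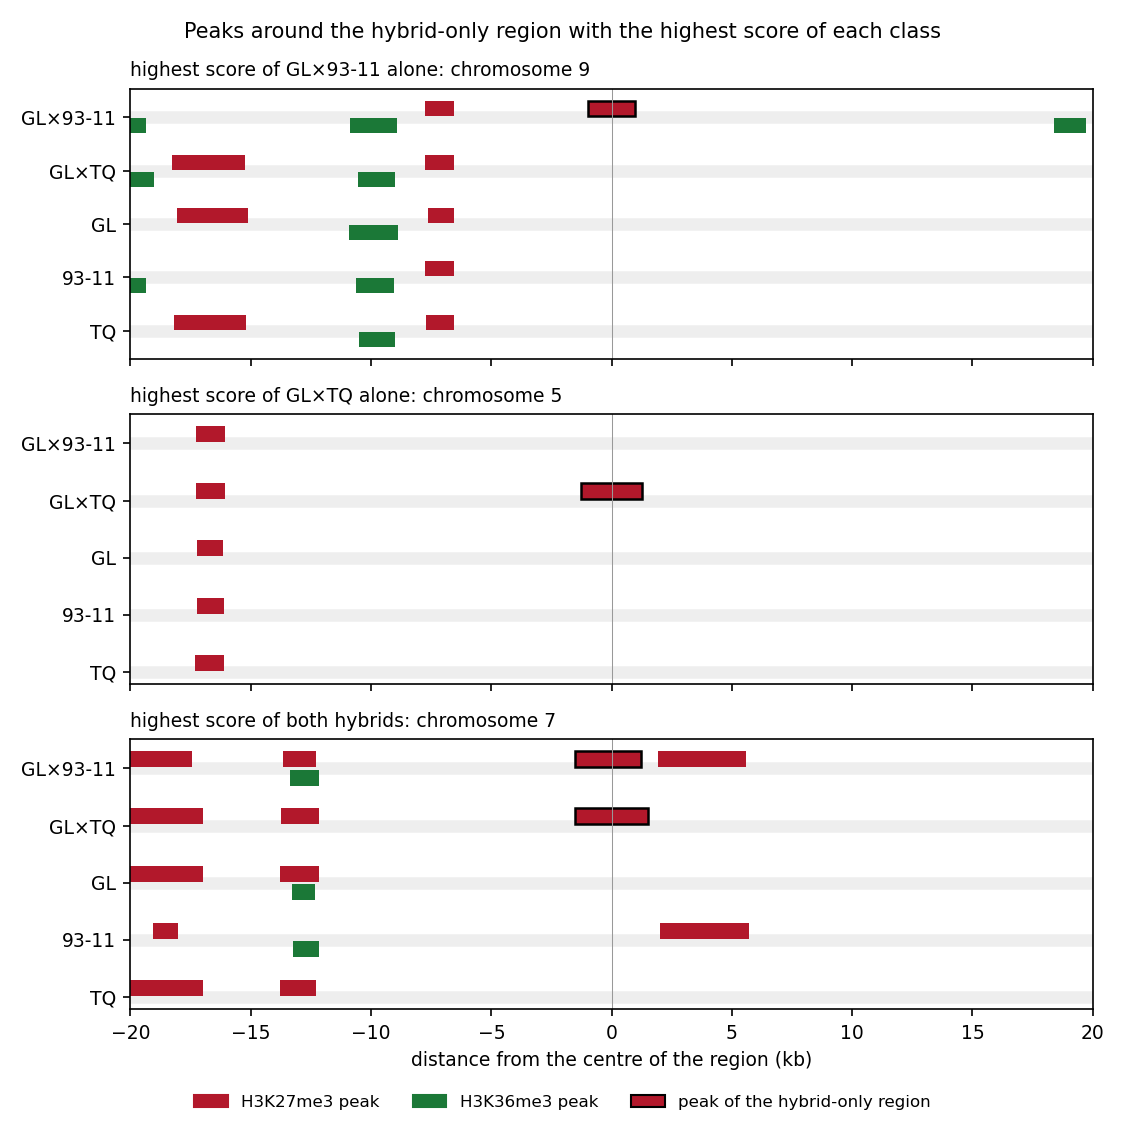
Peaks within 20 kb of the centre of the highest-scoring region of each class (horizontal axis, distance in kb), with 1 row per genotype, hybrids above parents. H3K27me3 peaks are in red, H3K36me3 peaks in green, and the peaks of the hybrid-only region are outlined; on chromosomes 9 and 5 the nearest parental peak is 5562 bp and 14822 bp away, and on chromosome 7 a 93-11 peak begins 470 bp to the right.

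The other high scores of GL×93-11 alone showed that score and level ranked the regions differently. On chromosome 7 from 2562218 to 2565461 the hybrid had 1319 tags (1249 to 1392), a level of 9.29 and a score of 268, with the nearest peak 9291 bp away in GL×TQ, 26611 bp in GL, 9279 bp in 93-11 and 26573 bp in TQ. On chromosome 6 from 17913751 to 17916599 it had 843 tags (787 to 902), a level of 6.76 and a score of 228. The nearest peaks there were 43860 bp away in GL×TQ, 10621 bp in GL, 20431 bp in 93-11 and 20383 bp in TQ. Both regions lay farther from a parental peak than the median hybrid-only region, at 4674 bp, and nearer than the upper quartile, at 14078 bp. The highest level of any hybrid-only peak of this hybrid, 12.7, came from 2276 tags (2183 to 2371) over 4104 bp on chromosome 2 from 27929642 to 27933745, yet the score there was 167 and the fold 2.13. Its parental neighbour, 12417 bp from it in GL, was likewise high in level and low in fold, with levels of 10.2 in GL×93-11, against 11.9 in GL, 9.94 in 93-11 and 12.0 in TQ, and folds of 2.08 to 2.37. The remaining 2 of the 6 had levels near the hybrid's usual one. The one on chromosome 11 from 23859592 to 23861109 held 238 tags (209 to 270.2), a level of 3.58 with a score of 173. The one on chromosome 9 from 22355526 to 22357493 held 407 tags (368 to 449), a level of 4.73 with a score of 171.

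Among the regions of GL×TQ alone, the second by score lay on chromosome 11 from 1947586 to 1950711. It held 1714 tags (1634 to 1797), a level of 12.9, with a score of 265 and a fold of 2.36, and the nearest peak was 1975 bp away in GL×93-11, 1799 bp in GL, 1977 bp in 93-11 and 13320 bp in TQ. The neighbour, found in both hybrids, GL and 93-11, had levels of 4.89 in GL×TQ and 4.96 in GL×93-11, against 4.49 in GL and 4.92 in 93-11, all well under that of the hybrid-only peak. On chromosome 9 from 12070204 to 12073149, GL×TQ had 885 tags (828 to 945), a level of 7.06 and a score of 259.9, and TQ had a peak 2711 bp to the right that GL×TQ lacked. The TQ peak there had 205 tags, a level of 5.10 and a score of 209.5. Hybrid and parent thus each had a call at a place where the other had none.

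Some regions of this class lay close beside a parental peak. On chromosome 7 from 24849697 to 24851964, GL×TQ had 495 tags (452 to 541), a level of 5.13 and a score of 229, and a GL peak ended 9 bp before it. GL×TQ itself had a peak over that GL peak, which ended 8 bp before the hybrid-only one, with levels of 5.91 in GL×TQ and 7.25 in GL. The marked stretch in GL×TQ therefore ran on for 2268 bp beyond the edge called in GL. On chromosome 5 from 23078285 to 23079996, the level was only 3.54 from 258 tags (227 to 291), with a score of 219, and a region of all 5 genotypes with levels of 8.43 to 9.57 began 593 bp to its right in 93-11. On chromosome 2 from 8849331 to 8851805, the level was 4.70 from 495 tags (452 to 541), with a score of 206, and the nearest parental peak was one of TQ, 2185 bp away.

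**Figure D3:**
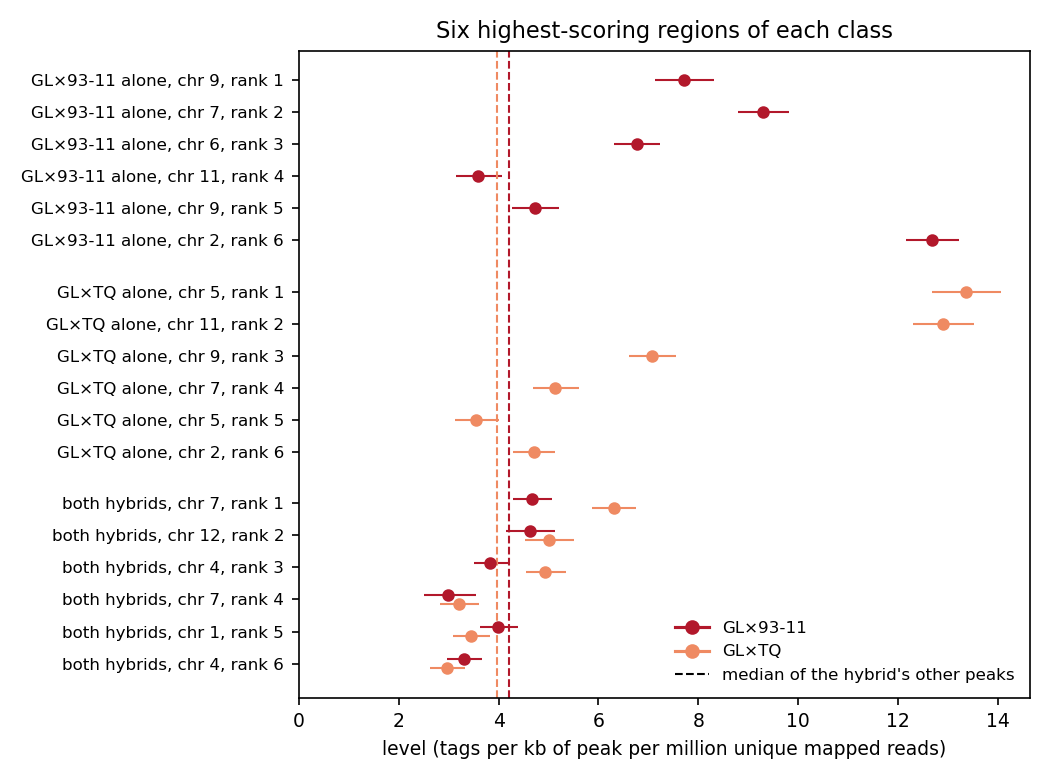
Level (horizontal axis, tags per kb of peak per 1000000 unique mapped reads) of the 6 regions with the highest score in each class, with 95% Poisson intervals; dashed lines mark the median level of the other peaks of GL×93-11 (4.21) and GL×TQ (3.97). The 6 regions of GL×93-11 alone range from 3.58 to 12.7 and the 6 of GL×TQ alone from 3.54 to 13.3, while those of both hybrids stay between 2.96 and 6.30.

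The 58 regions present in both hybrids were calls at closely the same place and of like level. The summits, where the tags pile up highest, lay a median of 89 bp apart (quartiles 27.25 and 267.5 bp), against 65 bp over 6758 other regions with 1 peak of each hybrid. The shorter peak lay within the longer one in the median case, and at least 78.0% of it was shared in all 58. Some overlap follows from the merging, and the shared part was not computed for the other regions. The level in GL×93-11 over that in GL×TQ had a median of 1.04 and ranged over the 58 regions between 0.673 and 1.59. GL×93-11 was the higher in 43 of the 58, and in the 6758 other regions its median excess was of the same size, at 1.05. The quartiles of this ratio were 0.997 and 1.11 in the 58 regions, against 0.972 and 1.14 in the other 6758. Across the 58 regions, levels of the hybrids had a Pearson correlation of 0.873 and a Spearman correlation of 0.825, against a Spearman correlation of 0.885 across the other 6758. Regions are not replicates and the hybrids share the parent GL, and the correlations are given as descriptions. Scores followed each other less closely, with a Spearman correlation of 0.566.

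**Figure D4:**
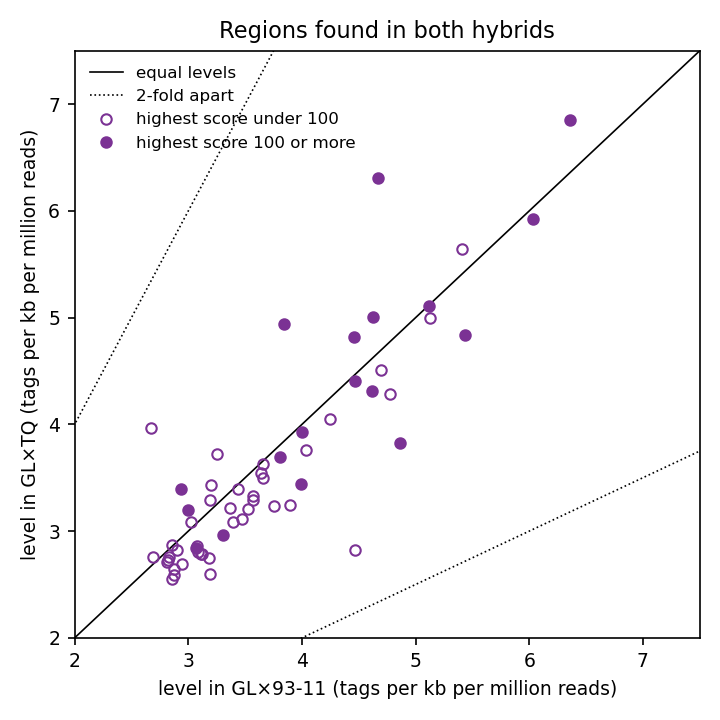
Level in GL×TQ (vertical axis) against level in GL×93-11 (horizontal axis), both in tags per kb per 1000000 unique mapped reads, for the 58 regions with peaks of both hybrids and of no parent; filled points have a highest score of 100 or more. The solid line marks equal levels and the dotted lines a 2-fold difference, and all 58 points lie inside the dotted lines.

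The highest score of a region in both hybrids was on chromosome 7 from 8855894 to 8858940. GL×TQ had 814 tags (759 to 872), a level of 6.30 and a score of 344, and GL×93-11 had 563 tags (517 to 611), a level of 4.67 and a score of 94.6. A 93-11 peak began 470 bp to the right, with a GL×93-11 peak over it and no peak of GL×TQ, while the nearest peak was 10651 bp away in GL and 10779 bp in TQ. The hybrid without 93-11 as a parent thus had the higher level beside this 93-11 peak, and its Poisson interval did not overlap that of GL×93-11 after scaling. On chromosome 4 from 29487320 to 29490279 the arrangement was alike. GL×93-11 had 470 tags (428 to 514), a level of 3.84 and a score of 199, GL×TQ had 615 tags (567 to 666), a level of 4.94 and a score of 256, and a 93-11 peak ended 212 bp to the left.

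Elsewhere the hybrids were closer to each other. On chromosome 12 from 21041559 to 21043475, GL×93-11 had 352 tags (316 to 391), a level of 4.62 and a score of 244, and GL×TQ had 408 tags (369 to 449.6), a level of 5.00 and a score of 307. This was the one region of the 6 with a score over 200 in both hybrids, and parental peaks began 3982 bp away in TQ, 4319 bp in 93-11 and 4333 bp in GL. On chromosome 7 from 21685742 to 21687710 the levels were low in both, 3.0 from 135 tags (113 to 159.8) with a score of 75.3 in GL×93-11 and 3.20 from 268 tags (237 to 302) with a score of 219 in GL×TQ. The level was near that of a barely called peak although 1 of the scores was among the highest. On chromosome 1 from 4610121 to 4612505, GL×93-11 had 417 tags (378 to 459), a level of 4.0 and a score of 199, and GL×TQ had 336 tags (301 to 374), a level of 3.44 and a score of 163, with no parental peak within 14 kb. On chromosome 4 from 17658562 to 17661008, GL×93-11 had a level of 3.31 and a score of 177, and GL×TQ a level of 2.96 and a score of 97.0, with a GL peak 2077 bp away.

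The median distance to the nearest parental peak was 4674 bp (quartiles 1702 and 14078 bp, range 9 to 174854 bp). As a yardstick, the regions with peaks of a hybrid and a parent lay a median of 5731 bp from the next parental region (quartiles 2054 and 14279 bp). Under 1 kb from a parental peak were 91 of the 541 hybrid-only regions (16.8%, 13.9% to 20.2%), against 1175 of 9531 (12.3%, 11.7% to 13%). Over 50 kb away were 20 hybrid-only regions (3.70%, 2.41% to 5.64%), against 294 (3.08%, 2.76% to 3.45%). The distances of the hybrid-only regions were thus of the same order as those between parental regions, with a higher share under 1 kb. The medians depended on the lists and moved together. With a score of 100 or more required in all lists they were 9681 bp for hybrid-only regions and 9558 bp for regions of hybrid and parent, and without the GL list they were 7464.5 bp and 7117.5 bp for the same kinds of region, so the lower median of the hybrid-only regions was lost.

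The share at short distances was highest in the class of GL×TQ alone, where 55 of 249 regions (22.1%, 17.4% to 27.6%) lay under 1 kb from a parental peak. In GL×93-11 alone it was 27 of 234 (11.5%, 8.05% to 16.3%) and in both hybrids 9 of 58 (15.5%, 8.38% to 26.9%). The medians were 3929 bp for GL×TQ alone, 5971 bp for GL×93-11 alone and 4324.5 bp for both hybrids. The intervals for GL×TQ alone and GL×93-11 alone did not overlap at 1 kb, which concerns counting error only, since each hybrid is 1 library.

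**Figure D5:**
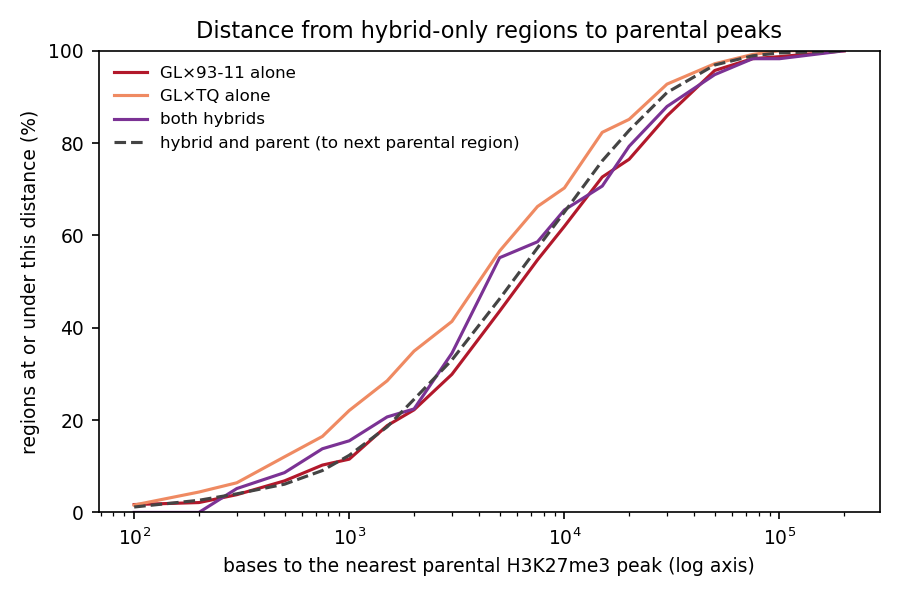
Share of regions (vertical axis, %) at or under a given distance from the nearest parental H3K27me3 peak (horizontal axis, bp, log scale) for the 3 classes of hybrid-only regions and, dashed, for the regions of hybrid and parent, measured to the next parental region. The line of GL×TQ alone is the highest at 1 kb, at 22.1%, and that of GL×93-11 alone the lowest, at 11.5%.

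The nearest parental peak was one of GL for 238 regions (44.0%), of 93-11 for 199 (36.8%) and of TQ for 104 (19.2%). Where parents tied, the first in the order GL, 93-11, TQ was taken. Ties were not counted, so the TQ count is a lower limit. Of all 27078 parental peaks, 35.6% were of GL, 33.4% of 93-11 and 31.0% of TQ. The parental region that held it was present in 1 parent only in 198 cases (36.6%, 32.6% to 40.7%) and in all 3 parents in 192 (35.5%, 31.6% to 39.6%). Of all 13106 parental regions, 35.0% were in 1 parent only and 40.7% in all 3. In the class of both hybrids, 30 of 58 nearest regions (51.7%, 39.2% to 64.1%) were of 1 parent only. A hybrid-only region of GL×TQ alone had a nearest parental region with a GL×TQ peak in 178 of 249 cases (71.5%, 65.6% to 76.7%), against 63.2% of all parental regions. For GL×93-11 alone, the nearest parental region had a GL×93-11 peak in 140 of 234 cases (59.8%, 53.4% to 65.9%), against 61.5%.

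A few hybrid-only peaks had another peak of their own hybrid close by. In GL×93-11, 17 of 292 hybrid-only peaks (5.82%, 3.67% to 9.12%) had one under 500 bp away, against 268 of 8100 other peaks (3.31%, 2.94% to 3.72%), and in 14 of these 17 the neighbour's region held a parental peak, against 254 of the 268 (94.8%, 91.4% to 96.9%). In GL×TQ it was 15 of 307 (4.89%, 2.98% to 7.90%), against 250 of 8314 (3.01%, 2.66% to 3.40%), and in 15 of the 15 the neighbour's region held a parental peak, against 235 of the 250 (94.0%, 90.3% to 96.3%). In each hybrid the share with such a close peak was higher among hybrid-only peaks than among other peaks, with overlapping intervals. The difference was not tested.

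At the edge of the rule, the nearest regions inside and outside differed by a few bases. Inside, after the chromosome 7 region 9 bp from a GL peak, came chromosome 6 from 27334873 to 27336119, where GL×93-11 had 312 tags (278 to 349), a level of 5.72 and a score of 112, with a 93-11 peak 25 bp to the right. The third was chromosome 4 from 23859093 to 23860410, where GL×93-11 had 224 tags (196 to 255), a level of 3.88 and a score of 94.0, with a GL peak 33 bp to the right. Outside, on chromosome 7 from 23288008 to 23290572, a GL×TQ peak with a level of 2.69 and a score of 55.1 shared 10 bp with a GL peak with a level of 3.33 and a score of 53.0. On chromosome 10 from 7544908 to 7547519, a GL×TQ peak with a score of 67.2 shared 64 bp with parental peaks of GL and 93-11, and on chromosome 10 from 19430312 to 19431954 a GL×93-11 peak with a score of 59.7 shared 126 bp with a 93-11 peak. These 3 were left out of the set although the shared stretch was 126 bp or less. With a parental peak counted from 20% cover of the hybrid peak, the set grew to 548 regions.

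Strong regions were about as far from parental peaks as weak ones. Over 10 kb away were 30 of the 81 regions with a score of 100 or more (37.0%, 27.3% to 47.9%), against 153 of the 460 others (33.3%, 29.1% to 37.7%). The farthest with a score of 100 or more lay on chromosome 4 from 14968563 to 14969317, where GL×93-11 had 119 tags (98.6 to 142), a level of 3.60, a score of 112 and a fold of 4.59 over 755 bp. The nearest peaks were 46348 bp away in GL×TQ, 75142 bp in GL and 46341 bp in both 93-11 and TQ. On chromosome 8 from 9715142 to 9716375, GL×TQ had 157 tags (133 to 184), a level of 2.99 and a score of 113, with the nearest peak 45512 bp away in GL×93-11, 68627 bp in GL, 45449 bp in 93-11 and 156425 bp in TQ. On chromosome 3 from 2961611 to 2962851, GL×93-11 had 176 tags (151 to 204), a level of 3.24 and a score of 117, and all nearest peaks of other lists were 34569 to 34638 bp away. The fourth was the chromosome 9 region from 22355526 given above, 32930 bp from a GL peak. All 4 were of 1 hybrid alone, and 3 of them had levels under the median of other peaks of their hybrid.

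H3K36me3 lay over a somewhat lower share of these regions than of others, with overlapping intervals. This direction depended on the score limit and on the parental lists. A peak of H3K36me3 in any of the 5 genotypes overlapped 46 of the 541 hybrid-only regions (8.50%, 6.44% to 11.2%), against 11.5% of all merged H3K27me3 regions and 1528 of the 13106 regions that are not hybrid-only (11.7%, 11.1% to 12.2%). With a score of 100 or more required in all H3K27me3 lists, it overlapped 48 of 352 hybrid-only regions (13.6%, 10.4% to 17.6%), against 1002 of 8954 others (11.2%, 10.6% to 11.9%). With that score required of the H3K36me3 peaks, it overlapped 29 of 541 (5.36%, 3.76% to 7.59%), against 1104 of 13106 (8.42%, 7.96% to 8.91%). The lower share was thus not kept when weak peaks were left out of all H3K27me3 lists, the parental ones included. With the score required of the hybrid H3K27me3 peaks alone, the share was 7 of 81 (8.64%, 4.25% to 16.8%). The share of the other regions was not computed for that setting. Without the GL list the shares were alike, at 137 of 1270 (10.8%, 9.20% to 12.6%) against 1190 of 11043 (10.8%, 10.2% to 11.4%). By class the counts were 28 of 234 in GL×93-11 alone (12.0%, 8.41% to 16.8%), 15 of 249 in GL×TQ alone (6.02%, 3.68% to 9.70%) and 3 of 58 in both hybrids (5.17%, 1.77% to 14.1%). H3K36me3 was not used to choose the regions. Longer regions have more room for an overlap, so the classes were also split by length, a split added after the values were seen. Among regions of up to 1500 bp, 23 of 235 hybrid-only regions had an H3K36me3 peak (9.79%, 6.61% to 14.3%), against 277 of 1850 regions of hybrid and parent (15.0%, 13.4% to 16.7%). Between 1500 and 2500 bp it was 15 of 169 (8.88%, 5.45% to 14.1%), against 390 of 3727 (10.5%, 9.52% to 11.5%), and over 2500 bp it was 8 of 137 (5.84%, 2.99% to 11.1%), against 436 of 3954 (11.0%, 10.1% to 12.0%). The hybrid-only share was the lower in each length class, with overlapping intervals in all 3. In both groups the share was highest among the shortest regions, so it was not the longer regions that overlapped H3K36me3 most often. Among the shortest, the hybrids differed most, with 17 of 100 regions in GL×93-11 alone (17.0%, 10.9% to 25.5%) and 6 of 116 in GL×TQ alone (5.17%, 2.39% to 10.8%).

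Where H3K36me3 was present, it was shared with the parents as often as elsewhere. Of the 46 regions, 44 had an H3K36me3 peak in a parent (95.7%, 85.5% to 98.8%), against 1448 of 1528 other regions with H3K36me3 (94.8%, 93.5% to 95.8%). An H3K36me3 peak was present in 32 in a hybrid that had the H3K27me3 region, and in 14 in a parent but not in that hybrid. The matching shares among the other regions were not computed, so whether these counts are few or many is not known. The H3K36me3 peaks were found in all 5 genotypes at 14 of the 46 regions (30.4%, 19.1% to 44.8%), against 535 of 1528 (35.0%, 32.7% to 37.4%) among other regions with H3K36me3. The strongest example in all 5 genotypes was on chromosome 3 from 18168591 to 18170062, where GL×93-11 alone had an H3K27me3 peak of 237 tags (208 to 269), a level of 3.68 and a score of 113. H3K36me3 levels there were 5.52 in GL×93-11 and 5.71 in GL×TQ, against 6.37 in GL, 5.13 in 93-11 and 5.76 in TQ. The hybrid with the H3K27me3 peak did not stand apart from the other genotypes in H3K36me3.

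The other named regions with both marks had H3K36me3 in fewer genotypes. On chromosome 8 from 19808836 to 19811901, H3K27me3 had a level of 3.81 and a score of 136 in GL×93-11 and a level of 3.69 and a score of 152 in GL×TQ, and H3K36me3 had a peak of level 3.10 in GL×TQ and of 2.94 in TQ, over the right end. On chromosome 6 from 25447269 to 25448816, GL×93-11 had an H3K27me3 level of 3.19 with a score of 136, and the only H3K36me3 peak was one of 93-11, with a level of 3.25. On chromosome 12 from 27065566 to 27067681, H3K27me3 had levels of 4.46 in GL×93-11 and 4.82 in GL×TQ, and H3K36me3 peaks of GL×TQ, GL and TQ ended inside its left edge. In 2 of these 3 regions the H3K36me3 peak thus lay at 1 end of the H3K27me3 region.

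Hybrid-only calls of both marks coincided at 2 of the 541 regions (0.370%, 0.101% to 1.34%). Of all merged H3K36me3 regions, 3.95% were hybrid-only. The share of other H3K27me3 regions that overlap one was not computed, so whether 2 is few or many is not known. On chromosome 7 from 9602616 to 9603879, GL×93-11 had 140 H3K27me3 tags (118 to 165), a level of 2.53 and a score of 57.8, and 159 H3K36me3 tags (135 to 186), a level of 2.79 and a score of 51.7. On chromosome 7 from 25195804 to 25197725, GL×TQ had 261 H3K27me3 tags (230.3 to 295), a level of 3.19 and a score of 84.6, and 261 H3K36me3 tags (230.3 to 295), a level of 2.82 and a score of 53.1. All 4 scores were under 100, and that of H3K27me3 in GL×TQ was the highest of them.

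The regions were spread over all 12 chromosomes. Their share of merged regions was highest on chromosome 8, with 53 of 986 (5.38%, 4.13% to 6.96%), and lowest on chromosome 5, with 30 of 1017 (2.95%, 2.07% to 4.18%), against 3.96% in all. The number of other H3K27me3 regions within 50 kb had a median of 4 around hybrid-only regions and of 4 around regions of hybrid and parent.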

How the data were processed

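ChIP-seq of H3K27me3 and H3K36me3 was done on leaves of 5 rice genotypes, with 1 library per genotype and mark. Filtered reads were aligned by the authors to Nipponbare using SOAP2, and peaks were called per library using MACS; the text on peak calling names no input control. The deposited lists give, as the authors' software wrote them, 3 values for a peak, namely its tag count, its fold enrichment ratio and its score (10 times −log10 of the p-value). The column of the score had lost its heading and was identified by its lowest value of 50.

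All 44091 H3K27me3 peaks were merged when they shared 1 bp or more. Distances count the bases between 2 intervals. Levels were scaled by the unique mapped reads that the study lists per library. With 1 library per genotype there was no test; Wilson intervals (95%) were computed for shares and Poisson intervals (95%) for tags, which cover counting error only. Regions named in the text are, by rule, the 6 highest scores of each class, the 4 farthest from a parental peak with a score of 100 or more, the 4 highest scores with an H3K36me3 peak, the 3 nearest to a parental peak and the 3 outside the set that share the fewest bases with one. The 2 regions with hybrid-only calls of both marks, the length classes, the distance of 10 kb, the neighbours of the same hybrid and the groups of neighbouring regions were picked after the values were seen. The regions, lists and rules were chosen with earlier results of these data known. Alternatives changed the score limit, the merging distance, the cover, the parental lists, the list length and the library total. The merging and the distances were tested on simulated data with planted regions. The tools were pandas 2.3.3, numpy 2.4.6 and scipy 1.17.1 under Python 3.11.15, and figures were drawn in matplotlib 3.10.9. Gene annotation, sequences and allelic reads were not analysed here.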

Additional observations from a re-analysis of the deposited data

How the results depend on the processing

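Each of 5 results was recomputed under 10 to 12 alternatives. The number of hybrid-only regions, 541, was 81 with a score of 100 or more required of the hybrids, 352 with it required in all lists, 962 against each hybrid's own parents only, 1270 without the GL list, 1218 without the 93-11 list and 881 without the TQ list, and between 442 and 705 under the other 4. The share in both hybrids, 10.7%, was 6.13% against own parents only, 23.5% without GL and 16.6% without 93-11. The median distance to a parental peak, 4674 bp, was 9681 bp with the score required in all lists, 5756.5 bp and 6543 bp when intervals up to 500 and 1000 bp apart were merged, 7464.5 bp without GL, 6161.5 bp without 93-11 and 5959 bp without TQ; leaving out parental lists or parental peaks can only lengthen the distance of a given region. The ratio of the median level of hybrid-only peaks to that of the other hybrid peaks, 0.791, was 1.05 with the score required of the hybrids, 0.855 with it in all lists and 0.777 with merging up to 1000 bp. The share with an H3K36me3 peak, 8.50%, was 13.6% with the score required in all lists and 5.36% with it required of the H3K36me3 peaks. In the other 33 of 53 recomputations the value stayed within the interval of the main value or, for the count, within 1.5 times. No paired analysis was possible because each genotype had 1 library. The ratio of levels was above 1 in 1 of its 12 alternatives, the one that required the score of the hybrids alone. Its interval there, 0.864 to 1.11, included 1. That interval takes peaks of 1 library per hybrid as its units, so no direction was tested by it. The lists give no depth outside peaks, so a parental signal just under the calling limit could not be measured.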

Other observations

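Neighbouring hybrid-only regions were looked for after the values had been seen, and they are given as values. On chromosome 2 from 18082545 to 18092670, 3 regions of GL×93-11 alone followed each other with 4 and 5 bases between them. Together they held 3245 tags (3134 to 3359) over 10126 bp, a level of 7.32, above the median of 4.21 for the other peaks of this hybrid. The 3 peaks had levels of 6.88, 8.18 and 6.92 and scores of 63.9, 86.2 and 142, so the stretch was high in tags and modest in score. The nearest H3K27me3 peak was 6503 bp away in GL×TQ, 6452 bp in GL, 6474 bp in 93-11 and 6507 bp in TQ, and the nearest H3K36me3 peak of any genotype was 11779 bp away. It was the longest run of hybrid-only peaks less than 500 bp apart, and the only other one had 2 regions.

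That other run lay on chromosome 11 from 20200848 to 20205022 and joined the hybrids. GL×TQ had 323 tags (289 to 360), a level of 4.28 and a score of 98.5 at its left end, and GL×93-11 had 330 tags (295 to 368), a level of 3.81 and a score of 99.1 at its right end, with 422 bases between them. The peaks were alike in tags, level and score, and counted as 2 regions of 1 hybrid alone each because they did not overlap. The nearest parental peak was 5709 bp away, in TQ.

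Regions of both hybrids also lay beside each other. On chromosome 12 from 27065566 to 27071931, 2 of them were 1485 bases apart, with levels of 4.46 and 4.0 in GL×93-11 and of 4.82 and 3.93 in GL×TQ. On chromosome 1 from 4610121 to 4618879, 2 were 4259 bases apart, with levels of 4.0 and 5.43 in GL×93-11 and of 3.44 and 4.84 in GL×TQ, and the nearest parental peaks lay 14181 bp to the left and 17745 bp to the right. On chromosome 12 from 25679862 to 25698001, 2 were 14426 bases apart.

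A looser group of 5 regions of GL×TQ alone stood on chromosome 3 from 16586083 to 16750936, each within 100 kb of the next. All 5 were weak, with scores of 60.2 to 65.9 and levels of 2.54 to 3.59, and the number of regions in such a group was the highest seen at that distance.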
